A study of Mus musculus with 6 samples.

Results

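The 34 genes described here mark excitatory neurons of the basolateral amygdala and the cortex. They were taken from a list of genes known for these cells, and 32 of the 34 were measured among 22180 genes in all. Each gene is represented by its brightest probe set among those that the platform annotation pairs with that symbol alone. Bhlhe22 had no probe set named for it, and Lypd1 was covered only by 2 probe sets that it shares with Gpr39, so neither has a value.

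RNA of the amygdala was read on GeneChip Mouse Gene 2.0 ST arrays, in 3 pools of IP3K-A KO mice and 3 pools of their WT littermates. All mice were males of C57BL/6N background, aged 10 to 15 weeks, and no other allele or treatment is given for either group. IP3K-A is a kinase that phosphorylates the calcium-releasing messenger inositol trisphosphate, and it is encoded by Itpka. Each array read a pool of several animals cut from slices, so the spread between pools is that of pooled dissections and single mice cannot be seen. The sources used here do not settle how many mice entered each pool.

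Excitatory neurons release glutamate, which vesicular transporters load into synaptic vesicles. In the basolateral amygdala they are the principal neurons that receive sensory input and project to the central nucleus, and they share many genes with the pyramidal neurons of the cortex. Their identity is set during development by transcription factors of the NEUROD, T-box and EMX families, several of which stay active in the adult. Other regulators mark single cortical layers or areas.

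The deleted gene was low in the KO pools. Itpka had log2 intensities of 6.76, 6.95 and 6.96 in KO pools 1, 2 and 3, against 8.85, 8.90 and 8.96 in WT pools 1, 2 and 3, a KO minus WT difference of −2.02 (SE 0.08, limma adjusted p = 0.000261). The sources used here do not say whether its probes fall in the deleted stretch. The 6 arrays had medians between 6.49 and 6.52, and correlations between arrays lay between 0.988 and 0.993 across probe sets. The mean log2 intensity of Slc17a7 was 11.50, and that of Prkcd, a marker of central amygdala neurons, was 7.94, where the median of the probe sets tested was 6.95. Of the transcription factors of excitatory neurons, Neurod1 and Emx1 lay below that median. Markers of striatal projection neurons had gene means from 7.43 to 12.03. Intensities of different genes depend on their probes, so these values describe detection, and levels are compared only between pools of the same gene.

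No excitatory neuron gene passed the test of KO against WT across all probe sets. Of the 32 genes, 21 were higher in KO (65.6%, against 49.9% of all genes) and 11 were lower, or 18 and 14 after repeated quantile normalization. The differences were small, from −0.14 for Slc30a3 to 0.18 for Slc17a6. The median difference was 0.03 on the log2 scale, against 0.00 over all genes, and the median size of a difference without regard to sign was 0.05, against 0.07 over all genes. By limma, 0 of the 32 had an adjusted p under 0.05 (background 0.0085% of probe sets) and 0 had an unadjusted p under 0.05 (background 6.52% of genes). The methods set thresholds of more than 1.2-fold and p under 0.1, which 0 of the 32 passed by limma (background 3.01%). By the Student test that the methods name, 0 had an unadjusted p under 0.05 (background 6.38%) and 0 passed these thresholds (background 1.82%). The smallest limma p was 0.115 for Adcyap1, with an adjusted p of 0.755. Pools were labelled as biological replicates, and p-values rest on the spread between these pools only. In limma, the variance of each gene is drawn towards that of all probe sets, which widens the intervals of genes with little spread. For Cck, the limma SE was 0.054, where the SD was 0.0205 in KO and 0.0086 in WT. In bulk tissue, fewer cells of a type and less RNA per cell cannot be told apart.

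A p that misses the threshold does not show that values were alike, so the 95% interval of each difference is the more useful measure. The interval lay within 1.2-fold in both directions for 19 of the 32 genes (59.4%, background 49.7%), and for 58.1% of all genes in the same range of intensity. The half-width of the interval had a median of 0.19 on the log2 scale. For the other 13 genes the interval reached past 1.2-fold on one side at least. Its highest upper bound was 1.33-fold, for Slc17a6, and its lowest lower bound was 0.781-fold, for Hs3st2.

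**Figure D1:**
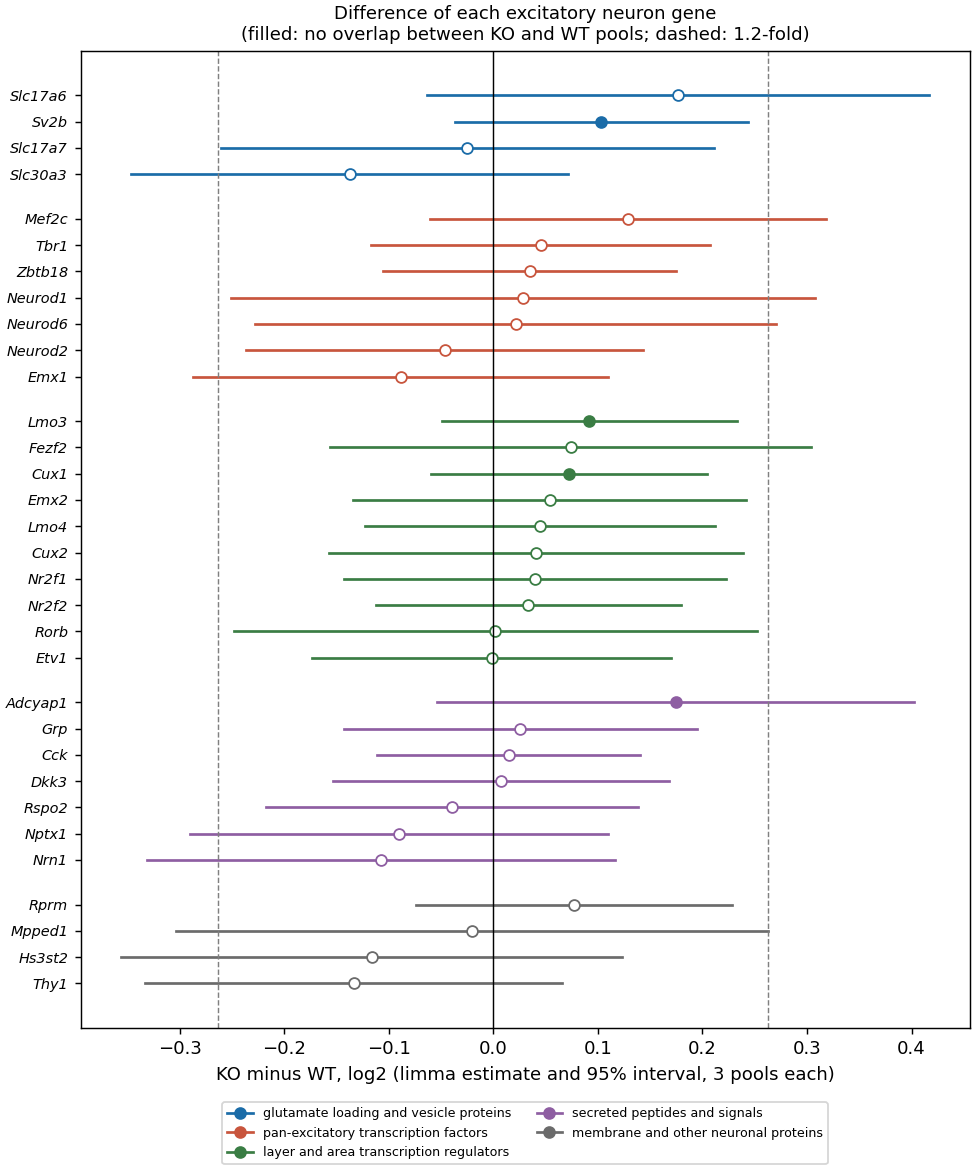
KO minus WT difference of each of the 32 excitatory neuron genes on the log2 scale, with the limma estimate as a point and the 95% interval as a line (3 KO and 3 WT pools), grouped by role. Dashed lines mark 1.2-fold in each direction, filled points mark the 4 genes whose KO and WT pools did not overlap, and every interval crosses 0.

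Among the genes that load and hold glutamate in vesicles, the main transporter had almost the same mean in both genotypes. Slc17a7, the vesicular glutamate transporter of most cortical and basolateral amygdala neurons, had log2 intensities of 11.36, 11.68 and 11.42 in KO pools 1, 2 and 3, against 11.44, 11.46 and 11.63 in WT pools 1, 2 and 3. The groups overlapped, with KO 2 the highest pool and KO 1 the lowest, and the difference was −0.02 (SE 0.10, 95% interval −0.26 to 0.21). Slc17a6, the transporter that prevails in thalamus, hypothalamus and medial amygdala, had 9.66, 9.46 and 9.55 in the KO pools, against 9.55, 9.19 and 9.40 in the WT pools. KO 1 was the highest and WT 2 the lowest, and the groups overlapped because WT 1 lay above KO 2 and KO 3. The difference of 0.18 (SE 0.10, 95% interval −0.06 to 0.42) was the largest upward one of the 32 genes, with a limma adjusted p of 0.76. It was 0.26 without WT 1, where the unadjusted limma p was under 0.05 (adjusted p = 0.733), and 0.08 without WT 2.

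Sv2b, a synaptic vesicle glycoprotein, was among the 4 genes whose pools did not overlap. Its log2 intensities were 11.79, 11.81 and 11.73 in the KO pools, against 11.61, 11.70 and 11.71 in the WT pools. Every KO pool lay above every WT pool, by a gap of 0.02, and the difference was 0.10 (SE 0.06, limma adjusted p = 0.76). Slc30a3, which loads zinc into glutamate vesicles, had 10.65, 10.93 and 10.67 in the KO pools, against 10.80, 10.92 and 10.93 in the WT pools. KO 1 and KO 3 lay below all WT pools and KO 2 lay among them, and the difference was −0.14 (SE 0.09).

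**Figure D2:**
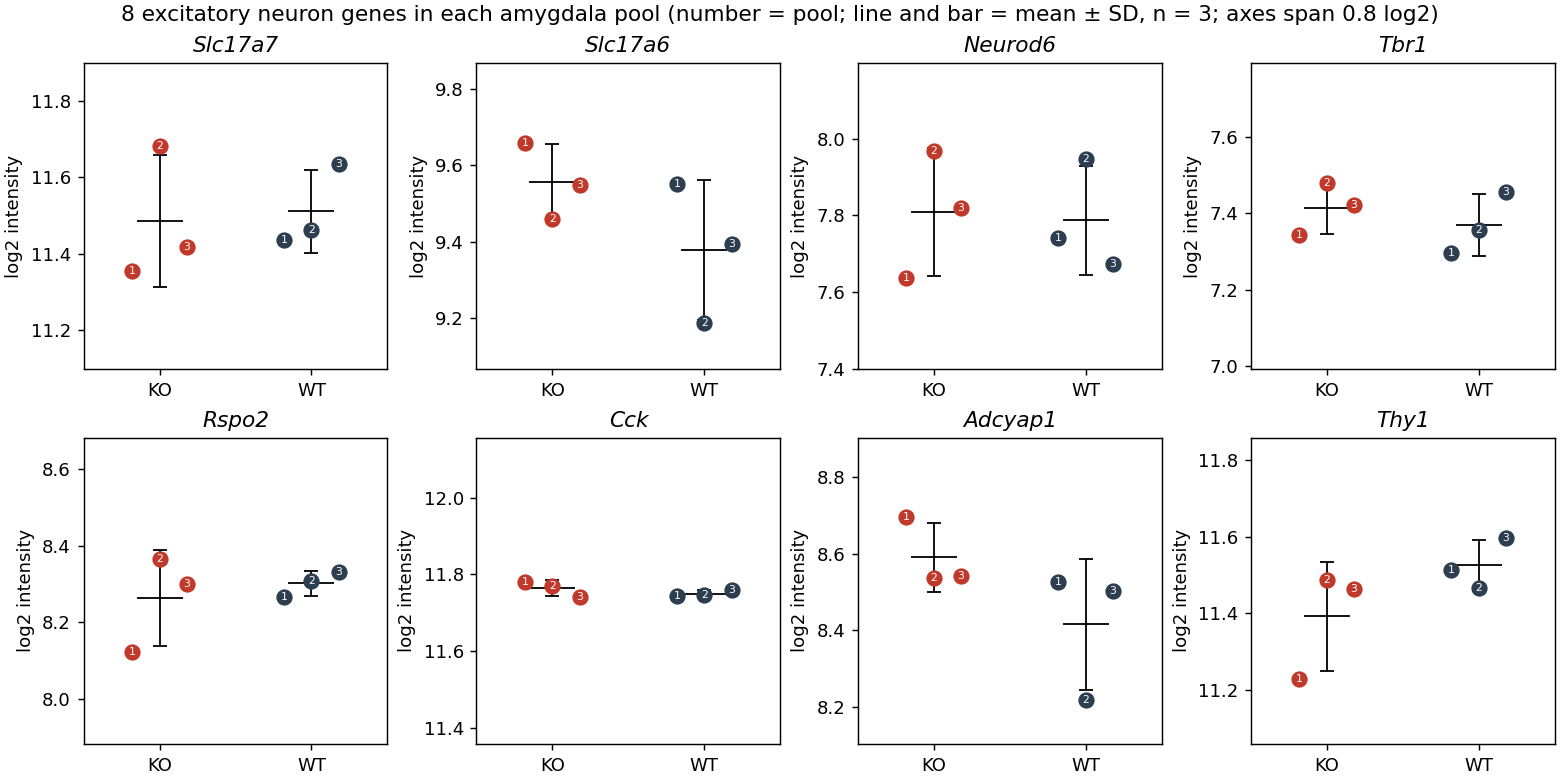
Log2 intensity of 8 excitatory neuron genes in each pool, KO left and WT right in each panel, with the pool number in the point and the mean ± SD of 3 pools as a line and bar. Each axis spans 0.8 log2, the groups overlap in all panels but that of Adcyap1, and Cck varied least, with a range of 0.04 over the 6 pools.

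None of the transcription factors that define excitatory neurons as a class passed the test by limma. Of 7 measured, 5 had a higher and 2 a lower mean in KO, and the median difference was 0.03. Without KO 2, or without WT 3, 3 were higher and 4 lower. The smallest adjusted p among them was 0.778, for Mef2c. Neurod6, a basic helix-loop-helix factor of pyramidal neurons, had log2 intensities of 7.64, 7.97 and 7.82 in the KO pools, against 7.74, 7.95 and 7.67 in the WT pools. KO 2 and WT 2 were almost equally high and KO 1 was lowest, with a difference of 0.02 (SE 0.11). Neurod1, a related factor, had 5.47, 5.87 and 5.73 in the KO pools, against 5.77, 5.72 and 5.49 in the WT pools. The WT pools lay inside the range of the KO pools, with a difference of 0.03 (SE 0.12).

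Tbr1, a T-box factor of glutamatergic neurons, had log2 intensities of 7.34, 7.48 and 7.42 in the KO pools, against 7.30, 7.36 and 7.46 in the WT pools. KO 2 was highest and WT 1 lowest, and the difference was 0.05 (SE 0.07). Emx1, a homeobox factor of the dorsal telencephalon, had 6.54, 6.70 and 6.52 in the KO pools, against 6.77, 6.53 and 6.72 in the WT pools. WT 2 lay among the low KO pools, and the difference was −0.09 (SE 0.09). The difference was 0.13 (SE 0.08) for Mef2c, an activity-dependent factor, on its brighter probe set (0.07 without KO 2) and −0.01 on the dimmer one. Zbtb18, a repressor needed for cortical neuron development, had a difference of 0.03, and Neurod2, another factor of the NEUROD family, had −0.05.

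Of the 10 regulators of cortical layer and area, 9 were higher and 1 lower in KO, where the sign of Etv1 turned with centred arrays, that of Rorb with repeated quantile normalization and those of Emx2 and Etv1 with array weights. Without KO 2, 6 were higher and 4 lower (Etv1, Cux2, Rorb and Nr2f1), and without WT 1, 7 were higher and 3 lower. All differences were small, from −0.002 for Etv1 to 0.09 for Lmo3. Lmo3, a LIM-only cofactor found in the basolateral amygdala, had log2 intensities of 10.70, 10.57 and 10.59 in the KO pools, against 10.54, 10.53 and 10.51 in the WT pools. Every KO pool lay above every WT pool, by a gap of 0.03, with KO 1 the highest (difference 0.09, SE 0.06, limma adjusted p = 0.785). The difference was 0.05 without KO 1. Cux1, a homeobox factor of upper-layer neurons, had 8.75, 8.71 and 8.76 in the KO pools, against 8.69, 8.63 and 8.69 in the WT pools. These groups also did not overlap, by a gap of 0.02, with a difference of 0.07 (SE 0.06, limma adjusted p = 0.817). A second and dimmer probe set of Cux1 had a difference of −0.02 with overlapping pools.

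Rorb, a nuclear receptor of middle-layer neurons, spread widely within WT. Its log2 intensities were 8.29, 8.37 and 8.21 in the KO pools, against 8.06, 8.43 and 8.38 in the WT pools. The WT pools held both the lowest and the highest value, and the difference was 0.002 (SE 0.11). Emx2, a homeobox factor that sets cortical areas, had 7.14, 6.96 and 6.999 in the KO pools, against 6.94, 6.90 and 7.10 in the WT pools, with overlap and a difference of 0.05 (SE 0.08). The upper-layer factor Cux2, the area regulators Nr2f1 and Nr2f2, the cofactor Lmo4 and the subcortical projection neuron factor Fezf2 had differences between 0.03 and 0.07. Etv1, a factor of deep-layer neurons, had −0.002 on its brighter probe set and 0.05 on the other.

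The secreted peptides and signals went both ways, with 4 of 7 higher and 3 lower in KO, where the signs of Cck and Dkk3 turned with repeated quantile normalization. Without KO 2, 2 were higher and 5 lower. Adcyap1, the precursor of the neuropeptide PACAP, had log2 intensities of 8.70, 8.54 and 8.54 in the KO pools, against 8.53, 8.22 and 8.50 in the WT pools. The KO pools lay above the WT pools by a gap of 0.01, and WT 2 was far below the others. The difference was 0.17 (SE 0.10, 95% interval −0.05 to 0.40) with all pools and 0.08 without WT 2. In both Adcyap1 and Slc17a6, KO 1 was the highest pool and WT 2 the lowest. Cck, the cholecystokinin precursor made by many principal neurons and some interneurons, had 11.78, 11.77 and 11.74 in the KO pools, against 11.74, 11.75 and 11.76 in the WT pools. It was the least variable of the 32 genes, with a difference of 0.01 (SE 0.05).

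Rspo2, a secreted enhancer of Wnt signalling that marks a group of basolateral amygdala neurons, had log2 intensities of 8.12, 8.37 and 8.30 in the KO pools, against 8.27, 8.31 and 8.33 in the WT pools. KO 1 was lowest and KO 2 highest, so that the WT pools lay inside the range of the KO pools, and the difference was −0.04 (SE 0.08). Nrn1, the activity-regulated growth factor neuritin, had 10.77, 11.11 and 10.81 in the KO pools, against 10.98, 11.03 and 11.01 in the WT pools. KO 2 lay above and the other KO pools below all WT pools, with a difference of −0.11 (SE 0.10). The difference was −0.09 for Nptx1, a pentraxin that clusters AMPA receptors, 0.03 for Grp, a peptide of lateral amygdala neurons, and 0.01 for Dkk3, a secreted protein of the Dickkopf family.

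Of the 4 measured membrane and other neuronal proteins, 1 was higher and 3 were lower in KO, with a median of −0.07. Without KO 1, 2 were higher and 2 lower. Thy1, a surface protein of projection neurons, had log2 intensities of 11.23, 11.49 and 11.46 in the KO pools, against 11.51, 11.47 and 11.60 in the WT pools. KO 1 was far below the rest, and the difference was −0.13 (SE 0.09) with all pools and −0.05 without KO 1. Hs3st2, a heparan sulfate sulfotransferase, had 7.38, 7.63 and 7.79 in the KO pools, against 7.72, 7.71 and 7.73 in the WT pools. The WT pools lay within 0.02 of each other while the KO pools spanned 0.41, and the difference was −0.12 (SE 0.10) with all pools and −0.01 without KO 1. Mpped1, a brain metallophosphoesterase, had 8.45, 8.72 and 8.69 in the KO pools, against 8.39, 8.78 and 8.73 in the WT pools. KO 1 and WT 1 were low and the other 4 pools high, with a difference of −0.02 (SE 0.12). Rprm, a protein linked to cell cycle arrest, had a difference of 0.08 (SE 0.06). Neurod1, Tbr1 and Rprm share chromosome 2 with Itpka, at 512, 633 and 665 genes from it.

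Across the list, KO pools lay above WT pools without overlap in 4 genes, Sv2b, Cux1, Lmo3 and Adcyap1 (12.5%, background 7.54%), and below in 0 genes (background 6.16%). Among all genes in the same range of intensity, the shares were 8.51% above and 6.02% below. For each of the 4 genes the two-sided exact permutation test gave p = 0.1, the smallest that 3 pools against 3 allow. Any gene whose pools do not overlap has this p, so it adds nothing to the choice of these 4. The pools of Adcyap1 overlapped once arrays were centred on their medians, those of Lmo3 after repeated quantile normalization, and those of Cux1 with the mean of its probe sets.

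The 32 genes did not vary evenly over the pools. KO 2 was the highest of the 6 pools in 15 of the 32 genes (46.9%, against 14.2% of all genes) and the lowest in 0. It lay above the mean of the 6 pools in 29 of the 32 (90.6%, against 52.9% of all genes), the exceptions being Slc17a6, Emx2 and Hs3st2. Its median deviation from that mean was 0.09, positive in all 5 groups of genes and between 0.06 and 0.10. The median deviation was 0.00 in KO 1, −0.02 in KO 3, −0.03 in WT 1, 0.01 in WT 2 and 0.02 in WT 3. KO 1 was the lowest pool in 9 genes (28.1%, against 19.2% of all genes), among them Slc17a7, Neurod6, Nrn1 and Thy1. It was the highest in 6 (18.8%, against 21.1% of all genes), among them Slc17a6, Lmo3 and Adcyap1. The median SD within groups was 0.10, larger than the median size of the difference between KO and WT, 0.05. Over all genes these medians were 0.10 and 0.07, and over genes in the same range of intensity 0.09 and 0.06.

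**Figure D3:**
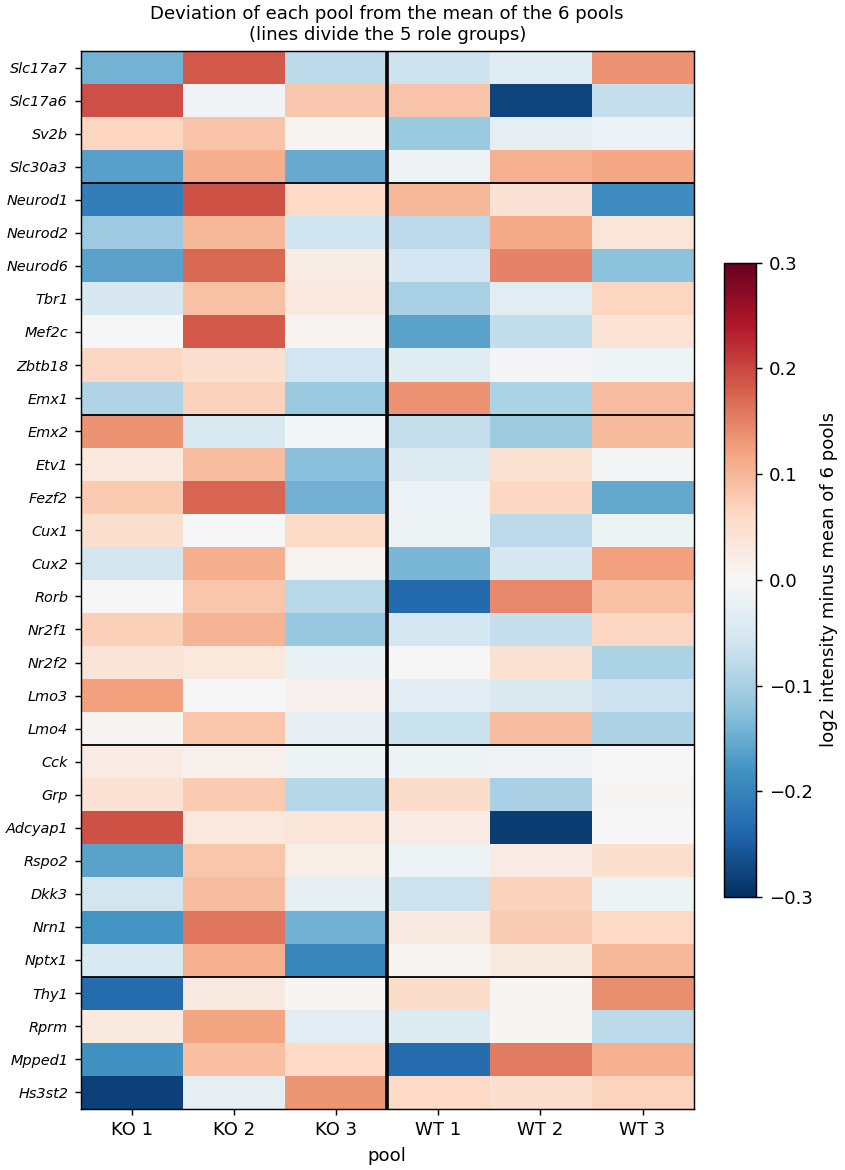
Deviation of each pool from the mean of the 6 pools for each of the 32 genes, in log2 units, with KO pools left of the thick line, WT pools right of it, and thin lines between the 5 groups of genes. The KO 2 value is above 0 in 29 of 32 rows, by as little as 0.0008 for Lmo3. KO 1 holds both deep blue cells, such as Hs3st2 at −0.28, and deep red ones, such as Adcyap1 at 0.19.

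The balance of higher and lower genes turned when that pool was left out. KO 2 was singled out from these same values as the highest pool, so leaving it out must lower most KO means. Without KO 2, 14 genes were higher and 18 lower in KO, and the median difference was −0.01. With the same 5 pools, 50.4% of all genes were lower. Both remaining KO pools then lay below all WT pools in 5 genes, Slc17a7, Slc30a3, Nrn1, Nptx1 and Thy1 (15.6%, background 11.7% of genes with the same 5 pools). Without KO 2 the difference was −0.23 for Slc30a3 and −0.22 for Nrn1. These 2 of the 32 genes then had an unadjusted limma p under 0.05, a share close to the background of 5.49%. Both had an adjusted limma p of 0.845. Sv2b, Cux1, Lmo3 and Adcyap1 stayed without overlap when KO 2 was left out, as must any gene without overlap in all 6 pools. Without KO 3, KO lay above WT without overlap in 9 genes (28.1%, background 13.7%). With each pool left out in turn, the difference moved by more than 1.5 times or turned for 30 of the 32 genes. Sv2b and Cux1 were the other 2. The share of all genes that moved or turned was not computed. Differences near 0 pass this limit easily, so the count cannot be read as a trait of this list.

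Markers of other cell types also differed between pools. The mean of 9 striatal projection neuron genes was 9.09, 9.08 and 9.54 in KO pools 1, 2 and 3. It was 9.62, 9.68 and 9.19 in WT pools 1, 2 and 3. All 9 had a lower mean in KO (background 50.1%). By limma, 1 of the 9, Gpr6, passed the thresholds of the methods (background 3.01%), with an adjusted p of 0.729. The mean of 6 oligodendrocyte genes was 9.40, 9.17 and 9.60 in the KO pools, against 9.53, 9.61 and 9.63 in the WT pools. All 6 had a lower mean in KO, and 1, Mobp, lay below WT without overlap (background 6.16%). By limma, 3 passed the thresholds of the methods (background 3.01%), namely Mag, Mobp and Cldn11, each with an adjusted p of 0.738. KO 2, the pool highest in excitatory neuron genes, was thus the lowest in oligodendrocyte genes and among the 3 low pools in striatal genes. The mean of 6 choroid plexus genes was 8.63, 7.42 and 7.13 in the KO pools, against 7.03, 7.21 and 7.13 in the WT pools. All 6 had a higher mean in KO (background 49.9%). By limma, 3 passed the thresholds of the methods (background 3.01%), namely Ttr, Folr1 and Clic6, each with an adjusted p of 0.741. KO 1 stood apart in the choroid plexus genes, with Ttr, a carrier protein made there, at 13.00. The mean of 5 hypothalamus genes was 6.56, 6.52 and 6.58 in the KO pools, against 6.64, 6.74 and 6.83 in the WT pools. These list means did not overlap, and all 5 genes had a lower mean in KO (background 50.1%). Taken singly, only Hcrt lay below WT without overlap (1 of 5, background 6.16%). By limma, 1 of the 5, Trh, passed the thresholds of the methods (background 3.01%), with an adjusted p of 0.741. Gene means ran from 4.89 for Pmch to 8.20 for Trh, where the median of the probe sets tested was 6.95. Thalamus genes were lower in KO in 4 of 5, with list means of 7.25 to 7.31 in KO and 7.31 to 7.40 in WT. Slc17a6, which neurons of both regions and of the medial amygdala use, had a higher mean in KO, with overlapping pools (limma adjusted p = 0.76). A relation of Slc17a6 to these lists was not tested. Genes of GABAergic neurons were lower in 8 of 9, with list means of 8.89 to 8.97 in KO and 8.91 to 9.01 in WT. Of the other lists, those lower in KO were 3 of 6 central amygdala, 3 of 5 hippocampus, 2 of 6 astrocyte, 2 of 5 microglia and 4 of 5 endothelial genes. The mean of 7 genes found in all neurons was 11.50 to 11.57 in KO and 11.54 to 11.57 in WT. The part of these markers in the differences between pools was not tested.

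**Figure D4:**
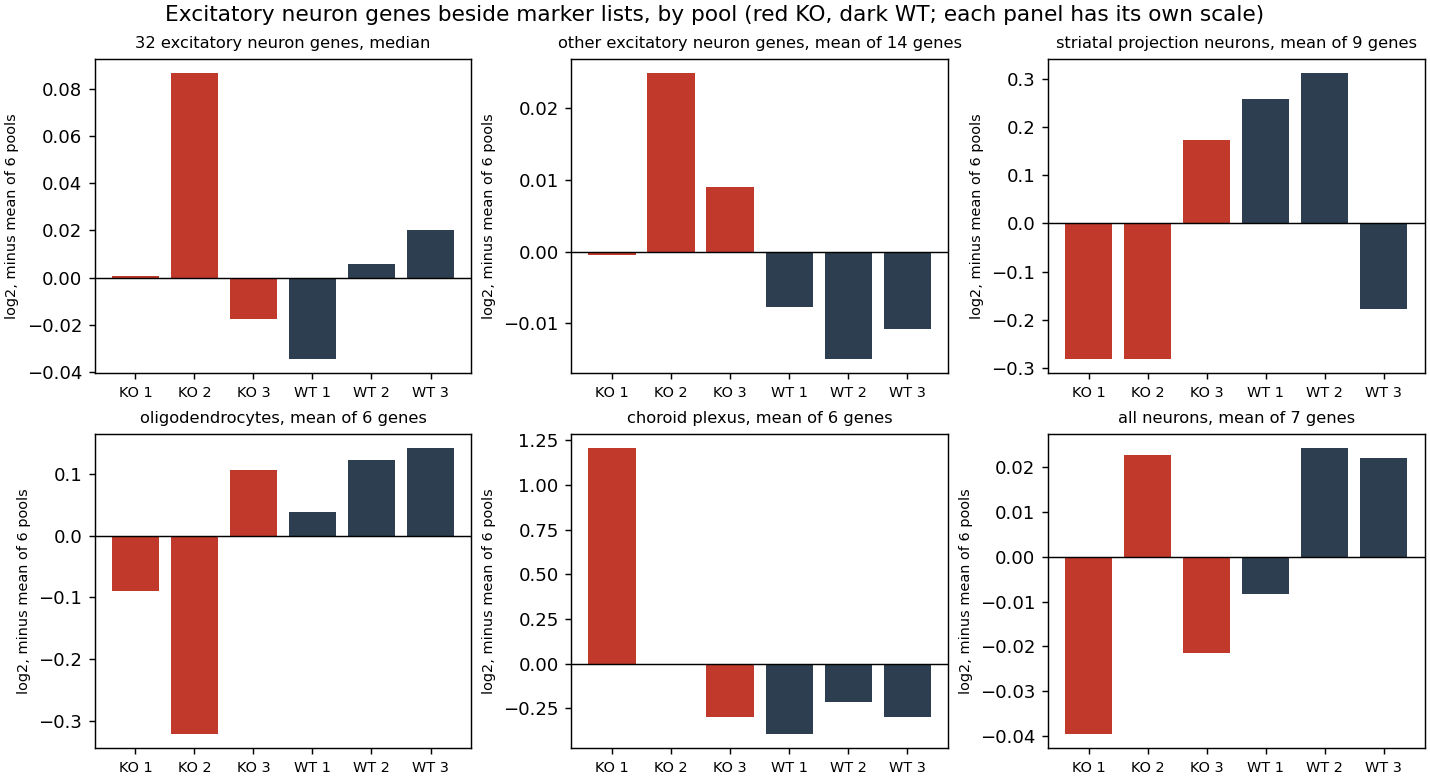
Deviation of each pool from the mean of the 6 pools, in log2 units, for the median of the 32 excitatory neuron genes and for the means of 5 marker lists, with KO pools in red left of WT pools in dark blue. Each panel has its own scale, and KO 2 is the highest pool in the excitatory panel, at 0.09, and the lowest in the oligodendrocyte panel.

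A second list of excitatory neuron genes, such as the kinase gene Camk2a and the calcium sensor gene Vsnl1, had 14 of 16 measured, with 8 higher and 6 lower in KO. Its mean was 10.23 to 10.25 in the KO pools and 10.21 to 10.22 in the WT pools, with KO 2 again the highest pool. Of the 14, 4 were above WT without overlap (Nr4a2, Rasgrf2, Vsnl1 and Slc17a8, background 7.54%) and 1 was below (Baiap2, background 6.16%). The 1 gene with an unadjusted limma p under 0.05 (background 6.52%) was Nr4a2, an orphan nuclear receptor gene, at 9.51, 9.66 and 9.62 in the KO pools, against 9.31, 9.46 and 9.36 in the WT pools. All KO pools were higher, with a difference of 0.22 (SE 0.07, limma adjusted p = 0.729).

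Promoter sequence was set beside these values for the genes whose pools are described above as steady or as differing most. RefSeq promoters of build GRCm38.p6, running from 250 bases before to 50 bases after each transcription start, were matched for 27 of the 34 genes, with 48 windows. Letters searched on both strands were the NEUROD-type E-box CAGATG, the cAMP response element TGACGTCA and its core TGACG, which overlaps the full element. The E-box letters were in 12 of 48 windows (25%), against 17.2% of 32851 windows of all genes, and 5 of the 12 belong to starts of Zbtb18. The core was in 8 of 48 (16.7%, against 20.8%), and the full element in 1, that of Hs3st2 (against 1.79%). Windows of the same gene can overlap and then count 1 site more than once. The 2 windows of Adcyap1 share 1 core, and starts 2 and 3 of Zbtb18 share 1 E-box. A match is a description of the letters and not of a bound site.

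Windows of 4 genes are printed 5′ to 3′ along the gene, with matching letters in capitals. Slc17a7 (chr7:45163671-45163970, plus strand), the defining transporter, held none of these letters. The second start of Slc17a6 (chr7:51624387-51624686, plus strand), the gene with the largest upward difference, held the E-box 205 and the core 102 bases before the start. The first start of Adcyap1 (chr17:93198767-93199066, plus strand), the gene with the smallest p, held the core 91 bases before the start. Cck (chr9:121495645-121495944, minus strand), the steadiest gene, held the E-box 30 and the core, on the other strand, 47 bases before the start.
Slc17a7: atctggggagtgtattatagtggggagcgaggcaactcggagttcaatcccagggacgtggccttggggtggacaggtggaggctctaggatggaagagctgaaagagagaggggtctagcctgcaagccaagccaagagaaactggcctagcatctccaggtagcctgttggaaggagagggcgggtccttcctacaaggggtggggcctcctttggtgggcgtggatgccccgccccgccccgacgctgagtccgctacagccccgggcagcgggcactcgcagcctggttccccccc
Slc17a6: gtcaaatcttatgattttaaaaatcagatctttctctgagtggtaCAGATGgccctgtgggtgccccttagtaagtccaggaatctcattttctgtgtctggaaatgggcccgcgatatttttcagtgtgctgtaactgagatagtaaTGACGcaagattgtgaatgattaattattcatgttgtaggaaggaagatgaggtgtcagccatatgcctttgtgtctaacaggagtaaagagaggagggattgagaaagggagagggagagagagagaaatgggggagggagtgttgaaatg
Adcyap1: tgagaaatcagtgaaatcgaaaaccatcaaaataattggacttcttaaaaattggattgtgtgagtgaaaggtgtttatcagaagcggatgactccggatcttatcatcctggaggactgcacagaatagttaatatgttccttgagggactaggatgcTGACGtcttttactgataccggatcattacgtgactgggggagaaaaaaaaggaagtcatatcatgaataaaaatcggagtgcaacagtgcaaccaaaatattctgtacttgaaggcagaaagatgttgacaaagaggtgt
Cck: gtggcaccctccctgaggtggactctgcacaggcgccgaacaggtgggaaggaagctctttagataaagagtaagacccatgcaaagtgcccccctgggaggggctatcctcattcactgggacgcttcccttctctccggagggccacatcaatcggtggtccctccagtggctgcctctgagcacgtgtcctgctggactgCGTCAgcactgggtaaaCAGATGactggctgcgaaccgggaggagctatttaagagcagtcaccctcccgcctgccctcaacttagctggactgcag
None of these letters were in the first window of Slc17a6 or in any window of Sv2b, Cux1, Lmo3 and Slc30a3. No relation between letters and differences was tested.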

How the data were processed

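Amygdala RNA of 3 KO and 3 WT pools of mice was measured on 1 array per pool, and groups and replicate numbers were taken from the sample labels. The deposited values are log2 intensities that the authors made with GCOS and RMA (submitters' processing notes, versions not given in the sources used here). RMA corrects background, gives arrays one distribution and summarises the probes of a set, so a shift shared by all genes would not be seen. The scale was read from the values, which ran from 1.57 to 13.78.

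The difference KO minus WT was estimated with limma 3.58.1 (lmFit, eBayes, no covariates, R 4.3.3) over the 23521 probe sets with exactly 1 symbol, of 41345. P-values were adjusted over all of them with the Benjamini-Hochberg method. For counts of genes, the brightest probe set stood for each of 22180 genes. Probe sets with several symbols (1820) or not listed in the annotation (16004) were left out. The fit was tested on simulated data. The number of arrays limits the precision.

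Genes given pool by pool were the defining genes, those with the largest difference, spread, highest or lowest intensity or without overlap, and Slc30a3, Nrn1 and Thy1, which were chosen after their values were seen. The genes and lists were chosen with earlier results of these data known. Alternatives were the Student test of the methods, an intensity trend with robust estimation, centred arrays, repeated quantile normalization, bright or all probe sets, a replicate block, array weights, the mean of a gene's probe sets, and each pool left out.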

Additional observations from a re-analysis of the deposited data

How the results depend on the processing

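Under the 15 alternatives, 0 of the 32 genes had an adjusted p under 0.05, and the lowest was 0.564. Neurod1 and Emx1 were not tested when only probe sets above the median were kept, which left 30. The sign of the difference held under every alternative run for 18 genes and turned under at least 1 for 14. The number of probe sets past an adjusted p under 0.05 was 2, against 0 with the Student test, 10 with trend and robust estimation, 7 with centred arrays or array weights, 6 with quantile normalization, 1 above the median intensity, 50 over all probe sets and 1 to 6 with a pool left out (6 without WT 1). Genes of the list with an unadjusted p under 0.05 were 0, against 1 with trend and robust estimation (Sv2b, adjusted p = 0.637) and 0 to 2 with a pool left out (2 without KO 2, 1 without WT 1, where 5.49% and 6.54% of all genes had one). Those past the thresholds of the methods were 0 to 1 with a pool left out (Slc17a6 without WT 1, where 4.16% of all genes passed). With a pool left out, those lower in KO were 8 to 18 (18 without KO 2), those above WT without overlap 4 to 9 (9 without KO 3) and those below 0 to 5 (5 without KO 2). With fewer pools such counts rise for all genes, which were above in 13.7% without KO 3 and below in 11.7% without KO 2, against 7.54% and 6.16% with all pools. Quantile normalization put 1 below, Thy1. The cause of these changes was not tested. Shares of all genes are not given here under quantile normalization, trend and robust estimation or the replicate block. The 1 gene that each of these settings names has therefore no background to be read against.

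Pools with the same number had correlations of their deviations of −0.034, 0.092 and −0.01. Pools with different numbers had correlations from −0.079 to 0.099. The paper drew its pools from several litters. With so few pools, these values cannot exclude litters shared between KO and WT pools. With the replicate block, 1 probe set passed an adjusted p under 0.05 and 1 gene of the list, Slc17a6, had an unadjusted p under 0.05 (limma adjusted p = 0.728).

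Signs that turned were those of Emx2 (−0.0015) and Mpped1 (0.0025) with array weights, of Etv1 with centred arrays (0.006), array weights (0.0065) and the mean of probe sets (0.0231), and of Rorb (−0.0165), Cck (−0.0147) and Dkk3 (−0.0173) with quantile normalization. With a pool left out, the lowest and highest differences were −0.1229 and 0.04 for Slc17a7, −0.0601 and 0.1393 for Neurod1, −0.0591 and 0.1071 for Neurod6, −0.0489 and 0.0602 for Etv1, −0.0175 and 0.113 for Cux2, −0.1145 and 0.0743 for Rorb, −0.0013 and 0.1058 for Nr2f1, −0.0055 and 0.065 for Nr2f2, −0.0165 and 0.0746 for Grp, −0.0911 and 0.0306 for Rspo2, −0.0372 and 0.0442 for Dkk3, and −0.1415 and 0.0647 for Mpped1.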
